A study of Mus musculus with 8 samples.

Results

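The cysteine transfer RNA copies are the genomic tRNA features of a normalized small RNA read count table whose names end in an anticodon label beginning with Cys. There were 57 of them among 423 genomic tRNA features and 2403 small RNA features of all kinds, and all 57 carried the anticodon GCA. The table covered immortalized mouse skin fibroblasts. These were KO cells kept for 24 h in hypoxia (1% O2), KO cells kept for 24 h in normoxia (21% O2), WT cells kept for 24 h in hypoxia and WT cells kept for 24 h in normoxia, with 2 libraries in each of the 4 groups. WT cells came from C57BL/6 mice and KO cells from mice labelled mir210lox/lox. The labels do not name a Cre or the cell type in which it acts, so the KO name rests on the sample titles and on miR-210-3p. That microRNA, a hypoxia-responsive one, had 10 and 32 normalized reads in KO hypoxia, 23 and 14 in KO normoxia, 36738 and 39011 in WT hypoxia and 4786 and 8676 in WT normoxia. Whether the 2 libraries of a group stem from separate cultures is not stated, so each p-value reflects the spread between these samples alone, and that spread may be technical.

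A cytosolic tRNA is transcribed by RNA polymerase III from promoter elements inside the gene itself, and it is trimmed at both ends, given a CCA end and charged with its amino acid. The cysteine tRNA with the anticodon GCA reads both cysteine codons. Mammalian genomes hold many near-identical copies of such genes, and reads of mature tRNAs and of the fragments cut from them often match more than 1 copy. In a small RNA library the level of a tRNA feature is therefore a level of short reads placed on that copy, and not the amount of charged tRNA.

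The 8 libraries summed to 8618630 to 12167438 normalized reads, which puts the share that 3 reads stand for at 2.47e-05% to 3.48e-05%. Genomic tRNA features together held 699889 to 1132159, highest in KO normoxia replicate 2. MicroRNAs on a list typical of mesenchymal cells made up 39.1% to 48.9% of the table. The lists for other cells reached at most 0.0310% for haematopoietic, 0.00294% for muscle, 0.00260% for epithelial and 0.00167% for endothelial microRNAs. The mesenchymal list included miR-21 and miR-22, and the shares of its members were not separated. Names were matched exactly apart from the arm, so a listed name carrying a further letter was not counted, and these shares may be too low.

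Which copy is which was read from the listed sequences. The table lists 74 bases for 56 of the 57 copies and 72 bases for chr6.tRNA177, while the coordinates span 73, or 71 for chr6.tRNA177. With the first and the last listed base set aside, 72 bases remained (70 for chr6.tRNA177), called the body here. The 57 copies had 32 different listed sequences but only 25 different bodies. The commonest body was shared by 29 copies, a second by 4 and another by 2, and the other 22 copies each had a body of their own. The bodies below are the commonest one and a choice of others, those of the highest copies and of some copies taken up in the results, shown to let their differences be seen. Positions count from 1 at the first base of the body. Capitals mark the anticodon in the commonest body, bases 33 to 35, and in every other body the bases that differ from the commonest.
commonest body (29 copies): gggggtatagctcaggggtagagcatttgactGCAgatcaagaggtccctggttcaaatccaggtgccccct
chr11.tRNA1444: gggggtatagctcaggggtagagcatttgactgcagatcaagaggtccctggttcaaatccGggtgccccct
chr11.tRNA1442: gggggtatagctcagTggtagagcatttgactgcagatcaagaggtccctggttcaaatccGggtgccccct
chr17.tRNA458 and chr9.tRNA593: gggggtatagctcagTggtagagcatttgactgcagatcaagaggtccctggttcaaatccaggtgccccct
chr6.tRNA1029: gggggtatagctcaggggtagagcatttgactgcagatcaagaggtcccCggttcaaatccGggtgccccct
chr6.tRNA1034: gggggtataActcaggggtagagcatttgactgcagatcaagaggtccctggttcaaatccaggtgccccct
chr6.tRNA167: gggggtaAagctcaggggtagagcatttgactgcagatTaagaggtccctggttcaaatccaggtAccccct
chr6.tRNA1020: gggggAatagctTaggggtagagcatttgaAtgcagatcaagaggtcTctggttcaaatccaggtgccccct

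The 4 copies of the second body differ from the commonest at G16T, T50C and A62G, and from each other only outside the body. They are shown as listed, with the first and the last listed base in capitals, because their levels differed although their bodies did not.
chr11.tRNA1432: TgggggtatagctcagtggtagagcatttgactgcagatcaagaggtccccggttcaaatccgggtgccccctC
chr11.tRNA791: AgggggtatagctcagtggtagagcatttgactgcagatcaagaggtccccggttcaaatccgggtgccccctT
chr6.tRNA157: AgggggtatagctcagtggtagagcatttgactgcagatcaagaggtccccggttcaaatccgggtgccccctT
chr11.tRNA1433: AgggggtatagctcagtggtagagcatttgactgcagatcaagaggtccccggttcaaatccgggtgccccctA

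Bases 48 to 52 and 60 to 64 of the commonest body are reverse complements and form the stem of the T arm, in which bases 50 and 62 lie opposite each other. The second body changes both members of that pair (T50C and A62G). The body of chr11.tRNA1444, the copy with the most reads, carries A62G alone. chr11.tRNA1442 has G16T and A62G, chr6.tRNA1029 has T50C and A62G, and the body shared by 2 copies has G16T alone. G10A marks chr6.tRNA1034. Among the 22 copies with a body of their own and the 2 shared variant bodies, 8 bodies lay 1 substitution from the commonest and 15 lay 2 to 5 away, while the shorter chr6.tRNA177 was not aligned.

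By position, 49 copies lay on chromosome 6, 5 on chromosome 11, 2 on chromosome 9 and 1 on chromosome 17. Coordinates are those of the table. The genome build behind them is not named, and only 9 of 556 microRNAs matched by name started within 10 bases of their GRCm38 position, so no gene, exon or UTR annotation of that build was laid over them. chr6.tRNA157 stood at 47928995, and the other 48 copies of chromosome 6 between 48083935 and 48313602. Within this cluster the numbers of 21 copies rise with the coordinate, chr6.tRNA157 included, and the numbers of 28 fall with it. These are called the rising and the falling run. The table gives no strand. The commonest body occurred in 10 copies of the rising run, 18 of the falling run and in chr9.tRNA592.

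The reads were concentrated on a few copies away from chromosome 6. Over the 8 libraries the 5 copies of chromosome 11 held 53.1% of the summed cysteine tRNA level, against 40.9% for the 49 copies of chromosome 6, 3.60% for chromosome 9 and 2.38% for chromosome 17. All copies are of nearly equal length, so their levels can be set side by side without a correction for length. How reads matching several copies were counted is not given, so a sum over copies may hold the same read more than once.

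chr11.tRNA1444 (97631142 to 97631214) held 29.8% of the sum over the 8 libraries and was the highest copy in each of them, with 27.3% to 32.8%. It had 4866 and 4929 normalized reads in KO hypoxia, 4939 and 8407 in KO normoxia, 4581 and 4242 in WT hypoxia and 3973 and 4468 in WT normoxia. KO normoxia replicate 2 stood far above the other 7 libraries, which lay within a narrow range. chr11.tRNA1432 (97850236 to 97850308), the highest of the 4 copies of the second body, was second with 14.3%. It had 2179 and 2708 in KO hypoxia, 1647 and 5338 in KO normoxia, 1816 and 1920 in WT hypoxia and 1803 and 2002 in WT normoxia. Its KO normoxia libraries were thus both the lowest and the highest of the 8. These copies together held 36.4% (KO normoxia replicate 1) to 47.7% (WT hypoxia replicate 2) of a library's cysteine tRNA reads.

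Below these, 3 further copies averaged over 500 normalized reads, all of the second body. chr11.tRNA791 averaged 703, chr6.tRNA157 654 and chr11.tRNA1433 505. 41 copies averaged 100 to 500, 7 averaged 50 to 100 and 4 averaged under 50. The 8 highest copies held 57.4% to 65.5% of a library's sum, and 35 to 39 copies were needed to reach 90%. The 4 lowest were chr6.tRNA1014 with 34.1, chr6.tRNA1023 with 17.3, chr6.tRNA167 with 17.1 and chr6.tRNA1020 with 4.50. Each of these carries 2 to 4 substitutions, but copies that differ as much could stand among the commonest body. chr6.tRNA1026, with T6C, T50C, A62G and C68T, averaged 184.5, inside the range of the copies that carry the commonest body.

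**Figure D1:**
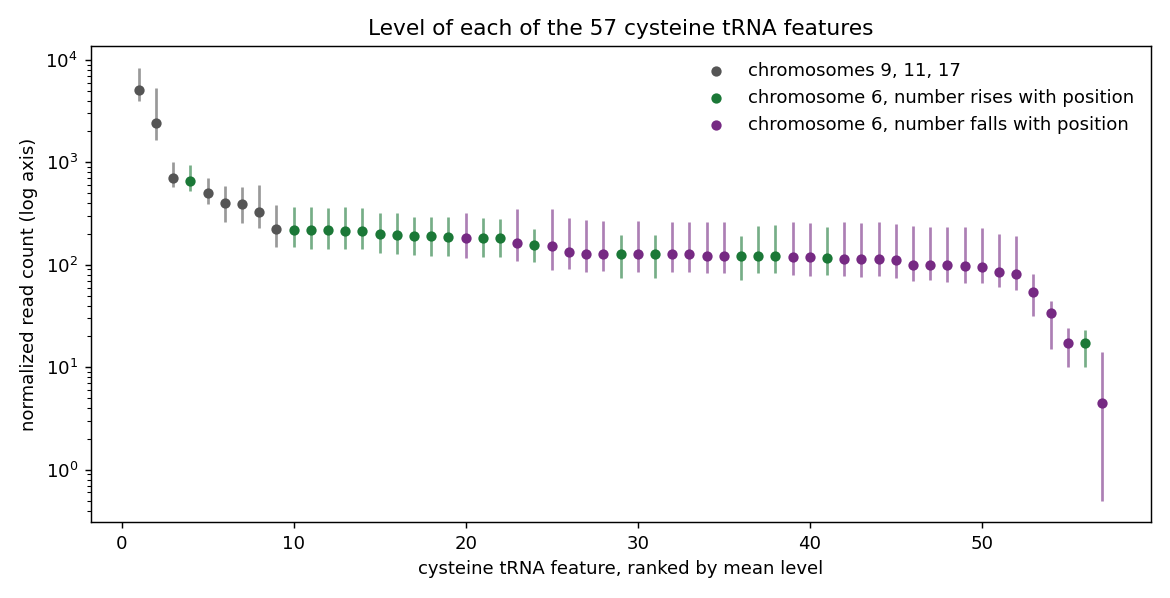
Each point is the mean normalized read count (log axis) of a cysteine tRNA copy over the 8 libraries, ranked from highest to lowest, and each line runs from its lowest to its highest library, with a 0 drawn at 0.5. Colours give the chromosome and, on chromosome 6, the run. The plot falls steeply from chr11.tRNA1444 at 5051 to a plateau of copies between 100 and 500 and ends with chr6.tRNA1020 at 4.50.

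Summed over all copies, cysteine tRNA had 15555 and 16392 normalized reads in KO hypoxia, 18099 and 30270 in KO normoxia, 15158 and 12921 in WT hypoxia and 13413 and 13936 in WT normoxia. KO normoxia replicate 2 again stood apart, while KO normoxia replicate 1 was the second highest. The group means were 15974 ± 592 in KO hypoxia, 24185 ± 8606 in KO normoxia, 14040 ± 1582 in WT hypoxia and 13675 ± 370 in WT normoxia (SD, n = 2 each). As a share of the table, the sum was lowest in WT hypoxia replicate 2 at 0.106% (95% exact binomial interval 0.104% to 0.108%). It was highest in KO normoxia replicate 2 at 0.293% (0.290% to 0.296%). These intervals take a normalized read as a count and cover counting error only. As a share of the genomic tRNA total it was 1.61% and 1.94% in KO hypoxia, 2.19% and 2.67% in KO normoxia, 2.04% and 1.64% in WT hypoxia and 1.92% and 1.57% in WT normoxia. By that measure both KO normoxia libraries were still above the other 6, and the KO hypoxia values overlapped those of WT hypoxia.

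**Figure D2:**
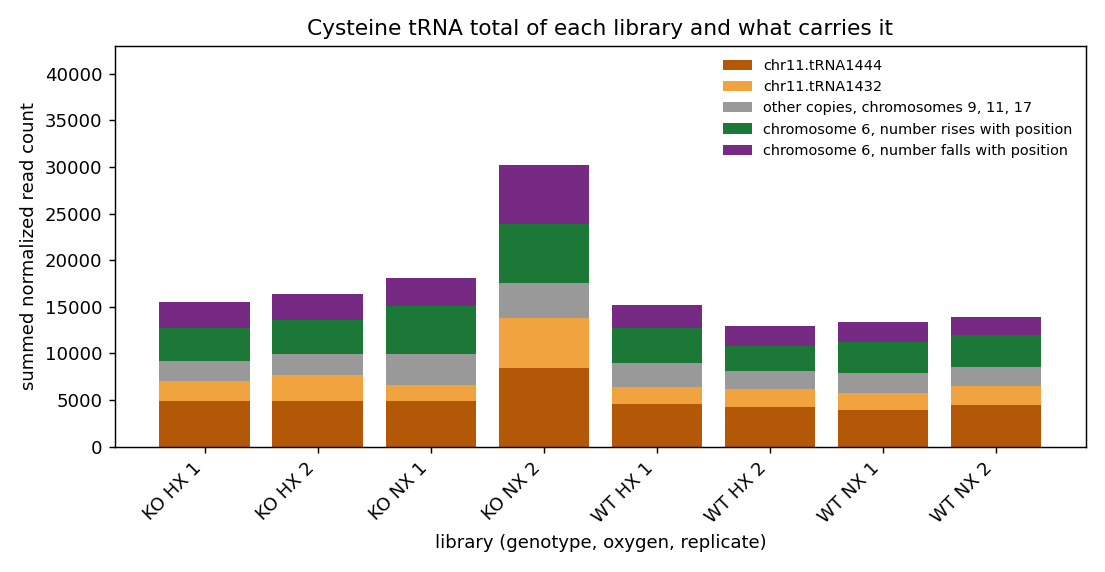
Each bar is the summed normalized read count of the 57 copies in a library, split into the 2 highest copies, the other copies of chromosomes 9, 11 and 17 and the 2 runs of chromosome 6. KO normoxia replicate 2 reaches 30270, and the other 7 libraries lie between 12921 and 18099. In every bar chr11.tRNA1444 is the largest share held by a copy, at 27.3% to 32.8%.

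Among genomic tRNAs, cysteine had the most listed copies of the 22 amino acid names, but it ranked 12 by summed level and 18 by mean level per copy. The mitochondrial cysteine tRNA, mt-Tc, is a separate gene encoded by the mitochondrial genome. It had 1312 and 1962 normalized reads in KO hypoxia, 1689 and 3425 in KO normoxia, 1578 and 2118 in WT hypoxia and 1699 and 2653 in WT normoxia. In every group replicate 2 was the higher library and the groups overlapped.

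Copies with 1 and the same body did not have 1 and the same level. In the rising run the 10 copies of the commonest body averaged 181.75 to 216.6 normalized reads. In the falling run the 18 copies of that body had a median of 116.6 and a lowest mean of 85.9, and all 18 lay below the lowest of the rising run. chr9.tRNA592 averaged 222.9. Among the copies with the commonest body, the level followed the position along chromosome 6. Spearman's rho between coordinate and mean level was 0.99 over the 10 such copies of the rising run and 0.95 over the 18 of the falling run, and it was 0.96 to 1.00 and 0.89 to 0.98 in the single libraries. Over all copies of a run, whatever their body, it was -0.068 for the 21 of the rising run and 0.34 for the 28 of the falling run. These correlations are a description, since the copies share their libraries and may share reads. The gradient was shallow, with the highest copy 1.19 times the lowest in the rising run and 1.55 times in the falling run.

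**Figure D3:**
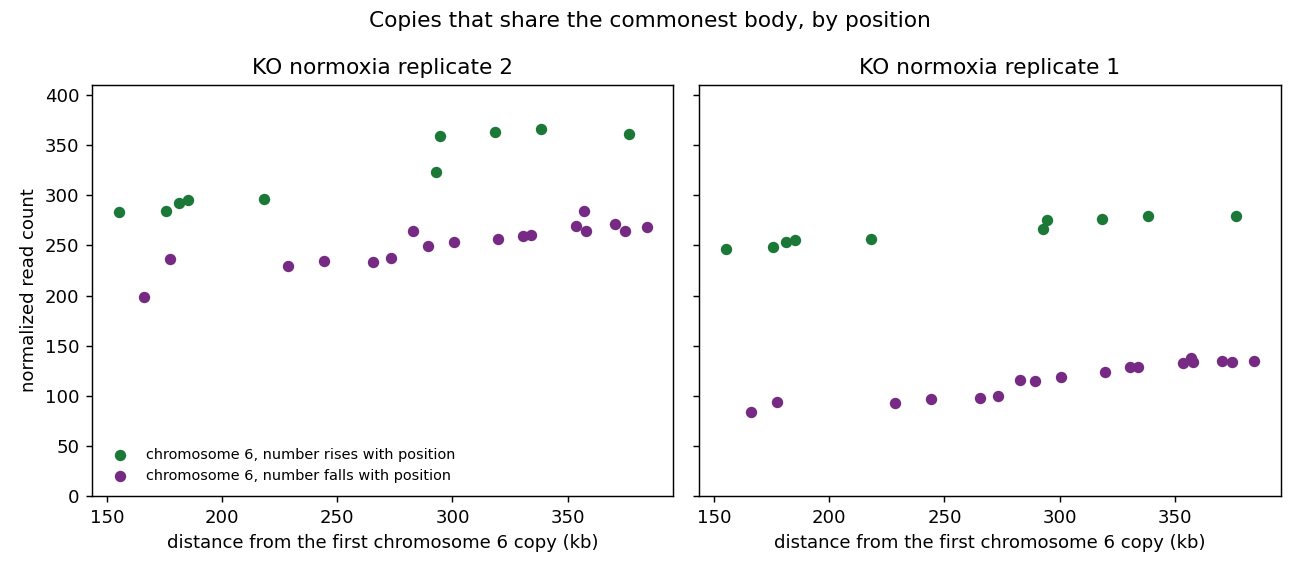
Each point is a copy with the commonest body, placed by its distance along chromosome 6 from chr6.tRNA157 (kb) and its normalized read count, in KO normoxia replicate 2 and KO normoxia replicate 1. In both libraries the level climbs along the cluster. The rising run lies wholly above the falling run in replicate 1, while in replicate 2 its lowest copy (283) is level with the highest of the falling run (284). The gap between the runs is narrower in replicate 2, where the median is 309.5 in the rising run and 257.5 in the falling run, than in replicate 1, where the medians are 261.0 and 121.5.

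The runs also had different profiles over the libraries. KO normoxia replicate 2 was 1.15 to 1.32 times replicate 1 for the 10 rising-run copies of the commonest body, and 1.97 to 2.51 times for the 18 falling-run copies. The first and last copies show the same thing. chr6.tRNA181 over chr6.tRNA1005, at the far end of the cluster, ran from 1.35 to 2.10 between libraries, and chr6.tRNA161 over chr6.tRNA1032, near its start, from 1.42 to 2.93. Copies that shared both the commonest body and the run scattered little about a shared profile. They were not fully proportional, as the range of 1.97 to 2.51 in the falling run shows. A chi-square of the values against a shared profile came to 6.97 on 63 degrees of freedom for those of the rising run and 23.7 on 119 for those of the falling run, which is 0.111 and 0.199 per degree of freedom, where independent counts give about 1. The 29 copies of the commonest body together gave 1.88. With every body included, the rising run gave 1.70 and the falling run 1.05. The 1.05 joins the 18 alike copies with copies of other bodies, so it does not mark the rows as independent. Since the values are normalized, 1 is only a rough mark.

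Some copies with a body of their own kept the level and profile of the copy next in number in their run. By coordinate, copies of the other run lay between the copies of each pair given here. chr6.tRNA179 (G64A) averaged 218.4, beside chr6.tRNA178 of the commonest body at 216.6. chr6.tRNA1017 (G66A) averaged 120.0, beside chr6.tRNA1016 of the commonest body at 118.5. Others had a profile unlike that of their run's commonest body. chr6.tRNA174, chr6.tRNA176 and chr6.tRNA177 belong to the rising run by number, yet averaged 121.6, 120.6 and 115.6 and had 240, 243 and 236 in KO normoxia replicate 2 against 130, 125 and 119 in replicate 1, a profile like that of the falling run. chr6.tRNA170, chr6.tRNA175 and chr6.tRNA182, also of the rising run, were like neither run's commonest body and stood lower in replicate 2, with 153, 156 and 158 in KO normoxia replicate 2 against 193, 195 and 196 in replicate 1. In all, KO normoxia replicate 2 was the highest of the 8 libraries, ties included, for 49 of 57 copies and KO normoxia replicate 1 for 7.

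The second body gave the widest spread among identical bodies, 4.81-fold between its highest and lowest copy. The ratio of chr6.tRNA157 to chr11.tRNA791 lay between 0.874 and 0.980 in all 8 libraries, and that of chr11.tRNA1433 to chr11.tRNA791 between 0.667 and 0.765. By contrast chr11.tRNA1432 was 1.85 to 5.32 times chr11.tRNA791. As printed above, chr6.tRNA157 and chr11.tRNA791 share the whole listed sequence, chr11.tRNA1433 differs from them in its last listed base and chr11.tRNA1432 in its first and last. The body shared by 2 copies gave a nearly fixed ratio, with chr17.tRNA458 at 1.02 to 1.07 times chr9.tRNA593.

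How many separate measurements the copies give depends on what counts as the same. Copies were taken as 1 measurement where their 8 values stood at a ratio that rounding to whole numbers allows, among the 56 with a mean of at least 10. That left 50 measurements, because 11 copies fell into 5 groups of 2 or 3, all of the commonest body. A copy joined a group when it met the rule with any member of it, so 2 copies of a group need not meet the rule with each other. With the ratio allowed to vary by 5% between libraries, 34 remained, and in the largest group, of 9 copies, 25 of 36 pairs met that limit. At 10%, a limit chosen after seeing the data, 18 remained, and 1 group then held 24 copies and another 13. In these only 90 of 276 and 38 of 78 pairs met the limit themselves, so these groups are chains of alike copies and not sets of equal ones. The group of 24 joined copies of the falling run with the rising-run copies that had its profile, and the group of 13 joined 12 copies of the rising run with chr9.tRNA592. By sequence alone there were 32 listed sequences and 25 bodies. The 57 rows of the table are therefore not 57 independent values, and counts of copies below are counts of rows.

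**Figure D4:**
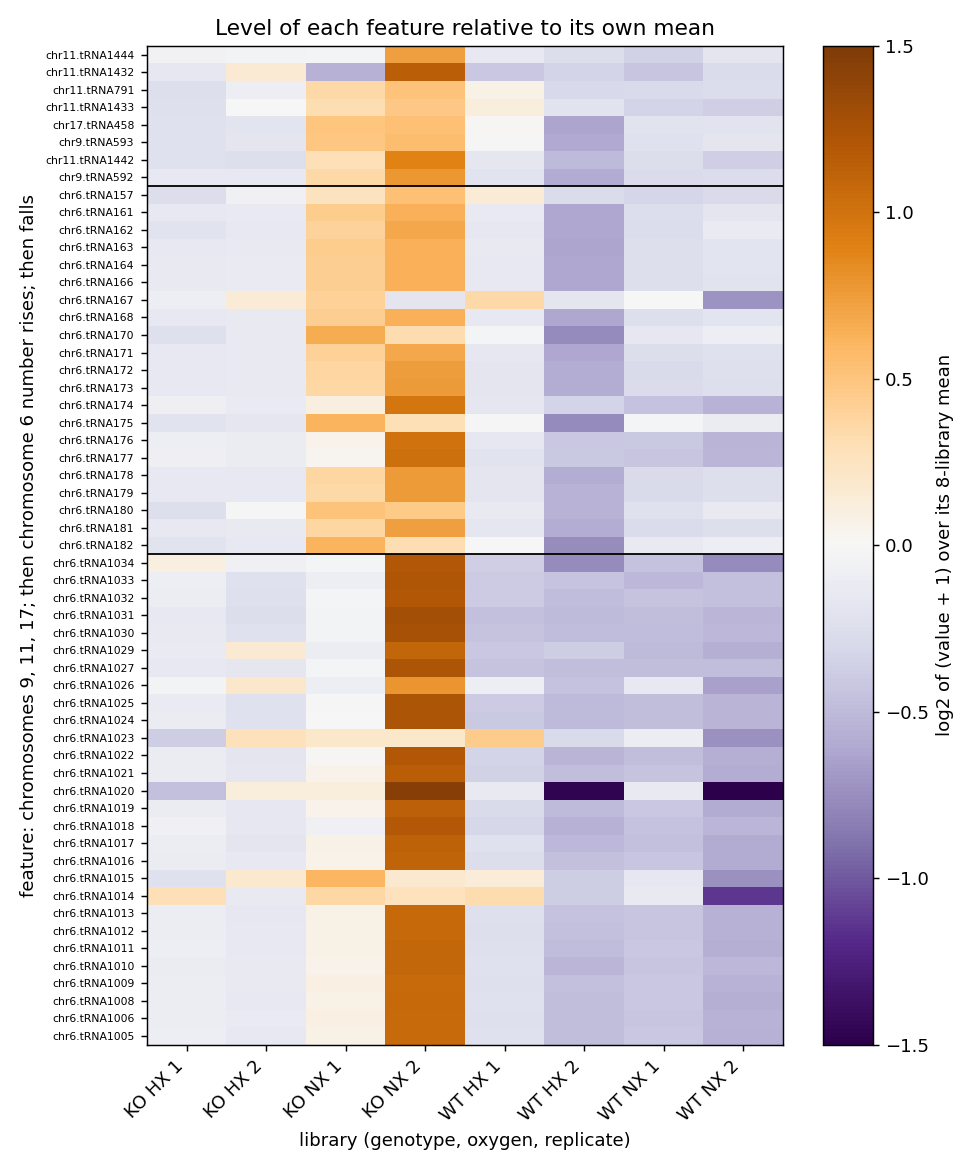
Rows are the 57 copies and columns the 8 libraries, KO first and hypoxia (HX) before normoxia (NX). Colour is the log2 of value + 1 over its 8-library mean, clipped at 1.5 either way. The KO normoxia replicate 2 column is strongest in the falling run (lowest block), while copies of the rising run also stand high in KO normoxia replicate 1 and low in WT hypoxia replicate 2.

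The study's design asks how genotype and oxygen each bear on small RNA levels. 56 of the 57 copies passed the filter of at least 10 normalized reads in at least 2 libraries. chr6.tRNA1020 did not, with 3 and 5 in KO hypoxia, 5 and 14 in KO normoxia, 4 and 1 in WT hypoxia and 4 and 0 in WT normoxia. Differences are on the log2(value + 1) scale and come from limma fitted to all 1540 features that passed, with Benjamini-Hochberg adjustment over all of them and a threshold of 0.05. They are given ± the standard error of that fit.

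Of the 4 comparisons of 2 groups, genotype in normoxia had the largest median difference. All 56 tested copies were higher in KO normoxia than in WT normoxia by the estimate, by 0.48 to 1.19 with a median of 0.87, against a median of -0.064 over all features. None of the 56 passed the adjusted threshold, the smallest adjusted p being 0.324 (limma, Benjamini-Hochberg), and 0.0649% of all features tested did. At an unadjusted limma p under 0.05 there were 46 copies, where 13.4% of all features had such a p. Both KO normoxia values lay above both WT normoxia values for 54 of the 56, where 21.9% of all features did, and below them for 0, where 20% did. A library enters every copy's value, so these copies share the libraries' spread and are not 46 or 54 separate results.

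chr11.tRNA1444 differed by 0.61 ± 0.30 and chr11.tRNA1432 by 0.64 ± 0.46, with limma adjusted p of 0.409 and 0.603. For chr11.tRNA1432 the groups overlapped, since KO normoxia replicate 1 had 1647 normalized reads and WT normoxia replicate 1 had 1803. The other copies of the second body were closer together, at 0.70 ± 0.27 for chr11.tRNA791, 0.70 ± 0.28 for chr6.tRNA157 and 0.75 ± 0.27 for chr11.tRNA1433. chr11.tRNA791 had 892 and 1003 in KO normoxia, against 575 and 586 in WT normoxia. chr11.tRNA1433 had 627 and 702 in KO normoxia, against 399 and 391 in WT normoxia. In these copies both KO normoxia libraries were high, and replicate 2 did not stand apart as it did in chr11.tRNA1444. The same held for chr17.tRNA458, which had 571 and 586 in KO normoxia, against 351 and 350 in WT normoxia, a difference of 0.72 ± 0.29. chr11.tRNA1442 differed by 0.90 ± 0.30 and chr9.tRNA592 by 0.83 ± 0.29.

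On chromosome 6 the falling run had the larger differences. Its 18 copies of the commonest body differed by 1.04 to 1.13, and the 10 of the rising run by 0.75 to 0.82. chr6.tRNA1034, the copy with G10A, differed most, by 1.19 ± 0.41. It had 148 and 351 normalized reads in KO normoxia, against 111 and 89 in WT normoxia. chr6.tRNA1017 differed by 1.13 ± 0.37 and chr6.tRNA1022 by 1.13 ± 0.39, and chr6.tRNA178 of the rising run by 0.82 ± 0.29. The smallest differences were those of chr6.tRNA167 at 0.48 ± 0.49, chr6.tRNA175 at 0.53 ± 0.33 and chr6.tRNA182 at 0.57 ± 0.33. Without KO normoxia replicate 2 the median over the 56 copies was 0.58 and 55 were still positive, and without KO normoxia replicate 1 it was 1.20. The count at an unadjusted limma p under 0.05 was 0 without KO normoxia replicate 2 and 46 without replicate 1. It was 15 without WT normoxia replicate 1 and 0 without WT normoxia replicate 2. Scaled to the genomic tRNA total, which was highest in KO normoxia replicate 2 and moves the median of all features to -0.35, the median of the copies was 0.58 and that count was 0.

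In hypoxia the genotypes were closer. 51 of the 56 copies were higher in KO hypoxia than in WT hypoxia, with a median of 0.24 and a range of -0.14 to 0.59, but scaled to the genomic tRNA total the median was -0.00093 and 27 were positive. The count past the adjusted threshold was 0 (limma; all features 0.13%) and the count at an unadjusted p under 0.05 was also 0, against 9.03% of all features. Both KO hypoxia values lay above both WT hypoxia values for 38 copies, where 19.2% of all features did. chr6.tRNA1034 had the largest difference, 0.59 ± 0.41, with means of 154.0 ± 12.7 in KO hypoxia and 103.0 ± 19.8 in WT hypoxia (SD, n = 2 each) and no overlap. chr11.tRNA1432 differed by 0.38 ± 0.46 and chr11.tRNA1444 by 0.15 ± 0.30. Without WT hypoxia replicate 2 the median over the copies was 0.065, and without WT hypoxia replicate 1 it was 0.37.

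Hypoxia went with lower estimates in KO cells. All 56 tested copies were lower in KO hypoxia than in KO normoxia, with differences of -0.82 to -0.088 and a median of -0.69, against 0.016 over all features. The count past the adjusted threshold was 0 (limma; all features 0), with a smallest adjusted p of 0.804, and 16 copies had an unadjusted p under 0.05, where 5.39% of all features did. Both KO hypoxia values lay below both KO normoxia values for 46 copies, where 13.1% of all features did. chr6.tRNA1031 had the largest difference, -0.82 ± 0.42, with 87 and 81 in KO hypoxia, against 94 and 236 in KO normoxia. The 2 KO hypoxia values lay just under KO normoxia replicate 1, and KO normoxia replicate 2 stood far above all of them. chr11.tRNA1442 was close to it at -0.82 ± 0.30, with 279 and 275 in KO hypoxia, against 395 and 604 in KO normoxia. chr17.tRNA458 differed by -0.72 ± 0.29 and chr6.tRNA178 by -0.70 ± 0.29. chr11.tRNA1444 differed by -0.40 ± 0.30, chr11.tRNA1432 by -0.29 ± 0.46 and chr6.tRNA1034 by -0.57 ± 0.41. Without KO normoxia replicate 2 the median over the 56 copies was -0.21 and 4 were positive. The count at an unadjusted limma p under 0.05 was 0 without that library, 40 without KO normoxia replicate 1, 0 without either KO hypoxia library, 2 without either WT normoxia library and 0 when scaled to the genomic tRNA total.

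In WT cells the differences were small and had no shared direction. 35 of the 56 were higher in WT hypoxia than in WT normoxia and 21 lower, with a median of 0.059. The number higher was 29 without WT hypoxia replicate 1 and 55 without WT hypoxia replicate 2. The count past the adjusted threshold was 0 (limma; all features 0) and no copy had an unadjusted p under 0.05, against 1.3% of all features. Both WT hypoxia values lay above both WT normoxia values for 6 copies, where 14.4% of all features did, and below them for 0, where 11.4% did. The runs of chromosome 6 parted here too. The 10 rising-run copies of the commonest body differed by -0.16 to -0.12 and the 18 falling-run copies by 0.011 to 0.15, all of it within the standard errors of 0.27 to 0.50 that the copies had. chr6.tRNA1014 had the highest estimate, 0.61 ± 0.46, and chr6.tRNA175 the lowest, -0.32 ± 0.33. chr11.tRNA1444 differed by 0.065 ± 0.30.

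**Figure D5:**
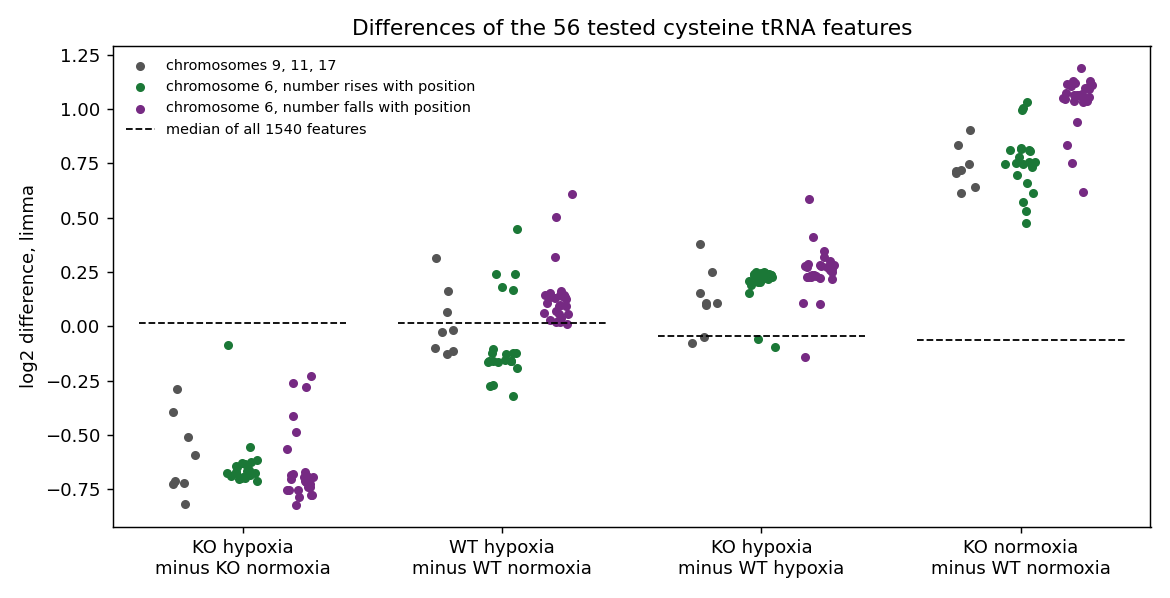
Each point is a tested copy's log2 difference from limma in a comparison of 2 groups, coloured by chromosome and run, and the dashed line is the median of all 1540 features. All 56 points lie above 0 for KO normoxia minus WT normoxia and below 0 for KO hypoxia minus KO normoxia, and the other comparisons straddle 0. None passed the adjusted threshold.

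The comparisons above share samples, so they are not separate evidence. The difference between the hypoxia changes of the genotypes was tested as an interaction. It was negative for all 56 copies, with a median of -0.76, but 0 passed the adjusted threshold (limma; all features 0) and 0 had an unadjusted p under 0.05, where 2.4% of all features did. Without KO normoxia replicate 2 its median was -0.37, and without KO normoxia replicate 1 it was -1.02 with 29 copies at an unadjusted p under 0.05. For 4 of the 57 copies the groups did not overlap in either genotype and stood in opposite orders, higher in WT hypoxia and lower in KO hypoxia. The share over all features was not computed. chr11.tRNA1433 was 1 of these copies. It had 432 and 501 normalized reads in KO hypoxia, against 627 and 702 in KO normoxia, and 551 and 437 in WT hypoxia, against 399 and 391 in WT normoxia. Its interaction was -0.82 ± 0.38 with an unadjusted limma p of 0.0554. chr6.tRNA157 had the same order, with a WT hypoxia difference of 0.24 ± 0.28 and an interaction of -0.79 ± 0.39. Its values were 548 and 627 normalized reads in KO hypoxia, against 780 and 951 in KO normoxia. In WT cells its order was narrow, with 726 and 541 in hypoxia, against 523 and 538 in normoxia.

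Averaged over oxygen, all 56 copies were higher in KO than in WT, with a median of 0.54. The count past the adjusted threshold was 0 (limma, smallest adjusted p 0.156; all features 0.13%), and 39 copies had an unadjusted p under 0.05, where 17.8% of all features did. All 4 KO values lay above all 4 WT values for 37 copies, where 8.38% of all features did, and below them for 0, where 3.51% did. The count at an unadjusted p under 0.05 was 1 without KO normoxia replicate 2, at most 2 without any other single library apart from KO normoxia replicate 1 (43) and WT hypoxia replicate 1 (33), and 0 when scaled to the genomic tRNA total, where the median was 0.27. Averaged over genotype, 53 of the 56 were lower in hypoxia than in normoxia, with a median of -0.32. The count past the adjusted threshold was 0 (limma; all features 0) and so was the count at an unadjusted p under 0.05, where 3.57% of all features had one. No copy had all hypoxia values below all normoxia values, where 0.714% of all features did, or above them, where 0.519% did. Without KO normoxia replicate 2 the median was -0.051. Without KO normoxia replicate 1 it was -0.51, with 33 copies at an unadjusted p under 0.05, and 12 had one without WT hypoxia replicate 1.

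Other tRNAs also stood high in KO normoxia replicate 2, and some did not. Set against the median of the other 7 libraries, the summed level in that library was highest for phenylalanine at 2.55 times, isoleucine at 2.44 and tryptophan at 2.25. Cysteine ranked 4 of 22 and serine was lowest at 0.699. Phenylalanine was not highest in that library, with 10742 normalized reads there against 14416 in KO hypoxia replicate 1. Its WT normoxia libraries had 8706 and 10170. For KO normoxia minus WT normoxia the median difference was 0.87 over the cysteine copies, against 0.26 over the 357 other genomic tRNA copies tested. For KO hypoxia minus KO normoxia it was -0.69 over the cysteine copies, against -0.10 over the others. Single amino acids came closer to cysteine or passed it. For KO normoxia minus WT normoxia, tryptophan had a median of 0.82 with 8 of 8 copies positive and aspartate 0.81 with 16 of 16 positive. For KO hypoxia minus KO normoxia, tryptophan had -1.02 with 8 of 8 negative, and glycine had -0.40 with 29 of 29 negative. These medians are a description and were not tested against each other. mt-Tc differed by 0.18 ± 0.40 between KO normoxia and WT normoxia and by -0.58 ± 0.40 between KO hypoxia and KO normoxia, with limma adjusted p of 0.889 and 0.901. The 3 features outside the family whose log2 level was most like the summed cysteine level over the 8 libraries, of 1111 compared, were all tRNAs of chromosome 11. They were chr11.tRNA206-ThrTGT with a Pearson r of 0.90, chr11.tRNA1820-TrpCCA with 0.89 and chr11.tRNA398-TrpCCA with 0.86, given as a description.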

How the data were processed

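Small RNA was sequenced from 8 libraries, 2 in each of 4 groups. Per the labels' protocols, total RNA came from a miRNeasy kit (Qiagen) and a NEBNext SOLiD small RNA set gave the libraries. The deposited values are the authors' score, a normalized read count per feature rounded to whole numbers. How reads were trimmed and aligned, the genome build, how reads matching several features were treated and how values were normalized were not given in the sources used here. Because the values are not raw counts, no count model was used. limma 3.58.1 in R 4.3.3 was fitted with an intensity trend to log2(value + 1) over 4 group means, for the 1540 features with at least 10 in at least 2 of 8 libraries. P-values were adjusted by Benjamini-Hochberg, threshold 0.05. limma estimated 5.64 prior degrees of freedom beside 4 residual ones, and the code was tested on simulated data. Bodies were compared with Python 3.11.15. Library totals ran from 8618630 to 12167438. The members, lists and tests were chosen with earlier results of these data known. Copies were named by level (the highest member of up to 12 distinct measurements) and by change (the 3 highest and 3 lowest in each comparison of 2 groups). chr6.tRNA1020, chr6.tRNA1005, chr6.tRNA161, chr6.tRNA174, chr6.tRNA176, chr6.tRNA177, chr6.tRNA1016, chr6.tRNA1026 and chr6.tRNA1032 are named outside this rule, with their values known. Alternatives were other pseudocounts (8 and 0.5), every feature kept, only features averaging 50 or more, quantile normalization, TMM factors, scaling to the genomic tRNA total, a fit lacking the intensity trend, a replicate block, the groups of a comparison alone, alike copies summed, and each library left out in turn.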

Additional observations from a re-analysis of the deposited data

How the results depend on the processing

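No copy passed the adjusted threshold in any of the 7 comparisons under any of 130 alternative counts (limma), the smallest adjusted p being 0.0761, for KO minus WT averaged over oxygen without KO normoxia replicate 1, where the settings ran from 0.0761 to 0.439. A group left with 1 library was assumed to vary like the others. Counts at an unadjusted p under 0.05 also dropped for KO hypoxia minus KO normoxia to 5 with quantile normalization and 1 with the groups alone, and for KO minus WT averaged over oxygen to 18 with quantile normalization. With the replicate number as a replicate block the count was also 0 in every comparison. The block did change the fit of the whole table. For KO minus WT averaged over oxygen, all features called rose from 2 to 91, and for WT hypoxia minus WT normoxia from 0 to 8. The copies' smallest adjusted p for KO minus WT averaged over oxygen was 0.0890 with the block (limma), against 0.156 without it. Deviations of same-numbered libraries correlated between groups at r of 0.15 to 0.55, with only 2 numbers and no label that pairs them. The groups of a comparison alone were not refitted for the interaction and the averaged comparisons, which use all 4 groups. Of 30 single-copy differences in the comparisons of 2 groups, 7 of 568 alternative values turned sign and 0 were called. The interaction differences of single copies and the differences of mt-Tc were not rerun under the alternatives. chr11.tRNA1444 turned to -0.037 for WT hypoxia minus WT normoxia with quantile normalization, and with a library left out ran from -0.019 to 0.15. It turned to -0.086 for KO hypoxia minus WT hypoxia when scaled to the genomic tRNA total. With a library left out, chr11.tRNA1432 ran from -0.21 to 1.49 for KO normoxia minus WT normoxia and from -1.14 to 0.56 for KO hypoxia minus KO normoxia, chr6.tRNA1034 from -1.19 to 0.055 for KO hypoxia minus KO normoxia, and chr6.tRNA175 from -0.70 to 0.053 for WT hypoxia minus WT normoxia. The sign turned without KO normoxia replicate 2 in the KO normoxia cases. The cause was not tested. The number of distinct measurements, 50 by rounding, was 32 by identical listed sequence, 34 at a ratio within 5%, and 51 with a minimum mean of 1. It was 25 by identical body and 18 at a ratio within 10%, both chosen after seeing the data. Depth limits the lowest copies, such as chr6.tRNA1020 with a mean of 4.50.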
